A study of Mus musculus with 14 samples.

Results

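Mouse acute myeloid leukaemia cells were compared after 4 days in doxycycline, which switches their driver MLL-AF9 off, with the same kind of cells left untreated. The experiment holds 8 of the 14 libraries of the series: 4 doxycycline and 4 untreated, joined in 4 pairs by the label they share, and all 13406 genes of the deposited table are described. Both groups are primary Tet-Off MLL-AF9 leukaemias on the C57/BL6 strain. They were raised from foetal liver cells that carried a retroviral Tet-Off MLL-AF9 vector with a red reporter and another vector with NRASG12D and the Tet-Off activator, grown in irradiated mice, and harvested from the spleen of sick animals. Both groups therefore carry both vectors, and the doxycycline group differs by the drug, given in culture. The pairs are TRIMA2.M1B1 (pair 1), TRIMA2.M3B1 (pair 2), TRIMA2.M4B1 (pair 3) and TRIMA1.M4B1 (pair 4), and values below are in the order of pairs 1 to 4. The titles of the doxycycline libraries of pairs 1, 2 and 4 also end in R, a suffix of unstated meaning that no untreated title has. No day is listed for the untreated libraries. The labels do not say which pairs came from separate animals, and each p-value therefore covers only how far these samples differ from each other, which may be technical in part. No library had doxycycline without the switch, and what doxycycline does on its own and what the loss of MLL-AF9 does cannot be told apart.

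MLL (listed here under its older symbol Mll1) is a histone methyltransferase that keeps homeobox genes active. In MLL-AF9 its N-terminal part is joined to AF9 (Mllt3), a member of the complexes that drive transcription elongation, and the fusion holds HOXA genes, MEIS1 and MYB at the level of a progenitor. In myeloid progenitors this blocks maturation into monocytes, macrophages and neutrophils.

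Each library held between 17922644 and 25959766 reads on genes of the table. Levels are given as CPM, the read count relative to the authors' own scaled size of each library, and changes are doxycycline minus untreated on the log2 CPM scale ± SE (limma, adjusted over all genes). Of the 13 myeloid markers, all 13 were on the table. Of the markers of other cells, 3 of 14 B cell, 4 of 22 T and NK cell, 1 of 15 erythroid, 7 of 13 megakaryocyte, 5 of 14 mast cell, basophil and eosinophil and 2 of 18 stromal and endothelial markers were on the table, and the others, among them Cd3e, the globins and Col1a1, were not among its genes. On PC1, which held 75.0% of the variance, the untreated libraries lay at −57.97, −51.09, −56.86 and −39.47 and the doxycycline libraries at 52.18, 45.83, 46.88 and 60.51. The doxycycline library of pair 4 stood apart in other ways: Lars2, a mitochondrial leucyl-tRNA synthetase, was at 7919.6 CPM there and at 90.9 to 169 CPM in the other 7 libraries. Where leaving it out changes the call of a gene named below, the value without it is given or lies in the range given.

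Of the 13406 genes, 4198 rose (31.3%) and 4535 fell (33.8%), of which 1360 (10.1%) rose and 695 (5.18%) fell at least 2-fold. At 4-fold the counts were 476 and 162, at 8-fold 146 and 48, and at 16-fold 35 and 20, so rises outnumbered falls at each of these sizes on the authors' scaling, although falls were more numerous among all calls. The split depended on the scaling: with plain library totals 2702 genes rose and 6912 fell, and 1033 rose and 1210 fell at least 2-fold, so that the order at 2-fold turned. The median of all genes was then −0.27 in place of −0.03. All 4 pairs moved the same way for 10013 genes (74.7%). The doxycycline and untreated groups did not overlap for 8040 of the 13406 genes. Most genes named below from a list were chosen among those, so their separation was set by the naming rule. In bulk RNA, fewer cells of a type and less RNA per cell cannot be told apart.

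**Figure D1:**
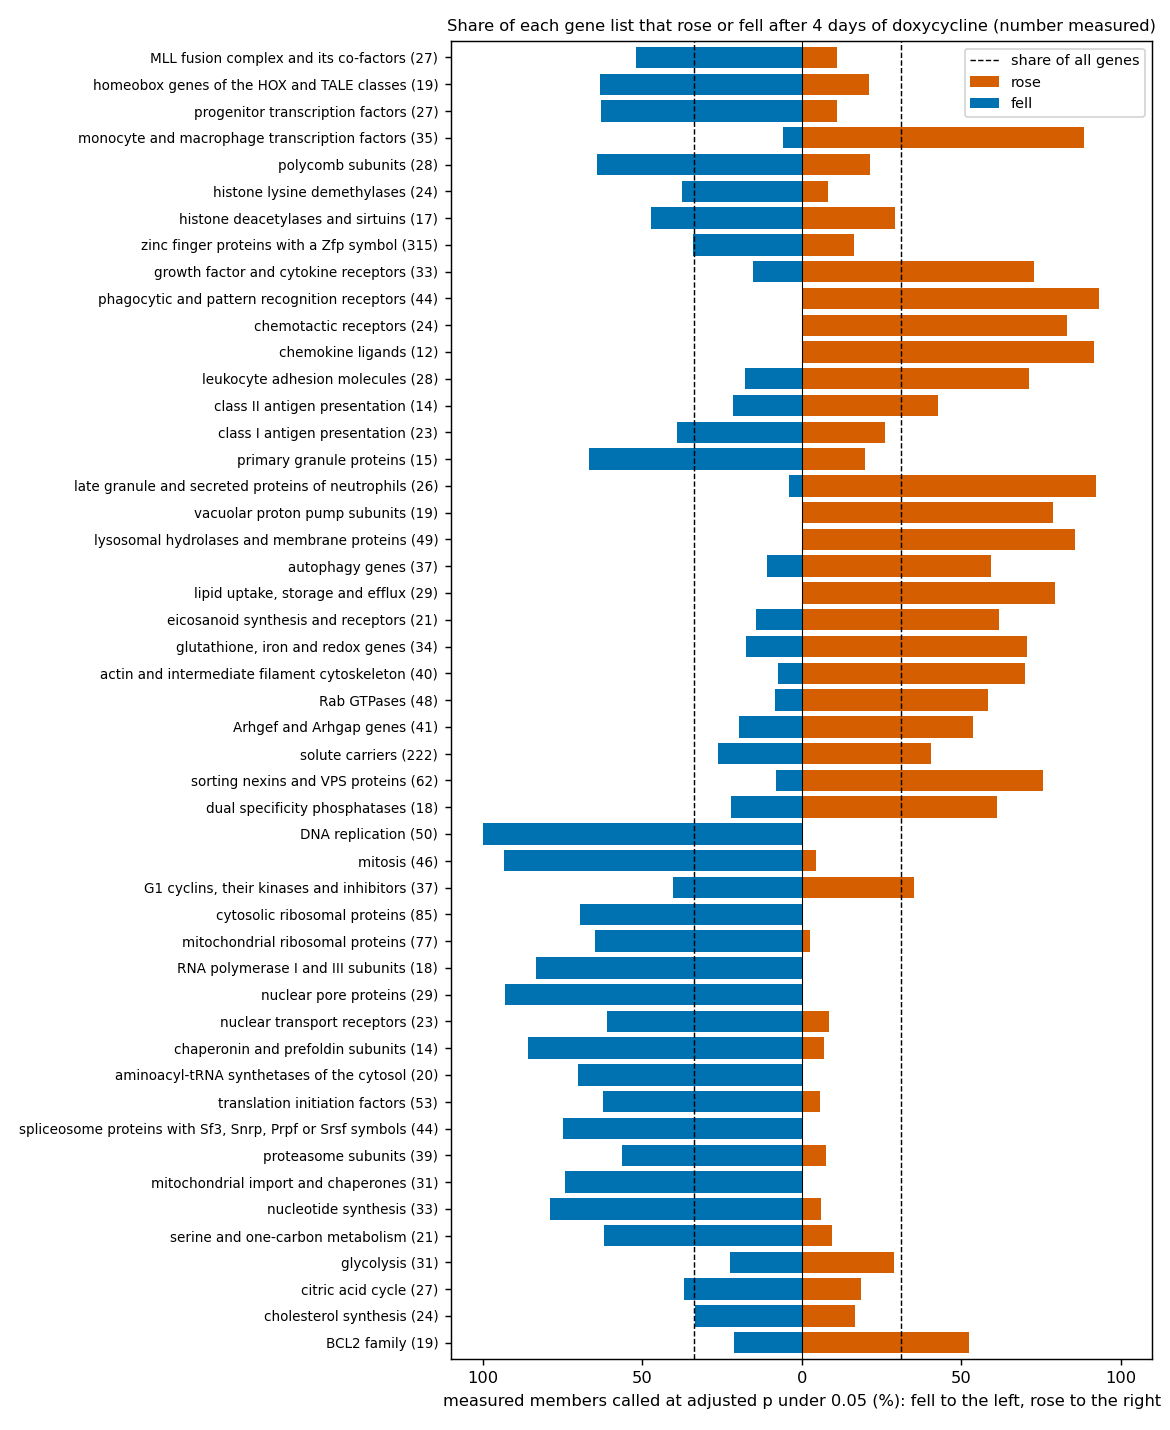
Share of the measured members of 49 gene lists (number in brackets) that rose (right) or fell (left) after doxycycline at an adjusted p under 0.05; dashed lines mark the shares of all genes, 31.3% and 33.8%. Receptor, lysosome and late granule lists extend right of the line for rises, and the primary granule, replication, ribosome and nuclear pore lists left of the line for falls.

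The switch itself was read from the 2 genes that the fusion joins. Mll1 was at 6369, 1998, 4430.1 and 2807 CPM in untreated libraries and 114, 121, 144 and 131 CPM in doxycycline, a change of −4.80 ± 0.30 (adjusted p = 1.3e-06). Mllt3 was at 811, 234, 565 and 347 CPM and 5.51, 6.79, 5.84 and 5.27 CPM (−6.23 ± 0.32, adjusted p = 5.8e-07). In untreated cells both genes were highest in pair 1, then pair 3, pair 4 and pair 2, while after doxycycline the libraries lay close together, and the groups did not overlap. The table does not separate reads of the vector from those of the cells' own Mll1 and Mllt3. Nras, present in mutant form on the other vector, was measured at 597, 718, 712 and 859 CPM and 844, 828, 879 and 872 CPM. The groups overlapped, and its change (0.26 ± 0.10, adjusted p = 0.0409) turned to −0.03 when values were quantile normalized and to 0.02 (adjusted p = 0.881) on library totals. Its call was also lost with no variance trend (0.057) and without any of 7 of the 8 libraries (0.0551 to 0.0907).

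Of the 27 measured members of the MLL complex and its co-factors, 3 rose and 14 fell, with a median of −0.20. Only Mll1, Mllt3 and Aff3 fell at least 2-fold. Aff3, a scaffold of the super elongation complex that is itself a fusion partner of MLL, was at 4.67, 25.4, 18.5 and 10.4 CPM untreated and 1.28, 2.21, 1.61 and 1.12 CPM in doxycycline (−3.01 ± 0.47, adjusted p = 3.6e-04). Its untreated levels ran against those of Mll1: pair 1 was lowest and pair 2 highest. Enzymes and adaptors that the fusion works with changed less: Dot1l, the histone H3 lysine 79 methyltransferase, had a change of −0.13 ± 0.06 (adjusted p = 0.0917, and as a fall 0.00579 under quantile normalization and 0.00097 with library totals), and Men1, the menin that tethers MLL to chromatin, fell by 0.36 on the log2 scale. Ell, an elongation factor, rose from 35.9, 36, 40.6 and 41 CPM to 58.4, 62.8, 60.1 and 51.4 CPM (0.60 ± 0.07).

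**Figure D2:**
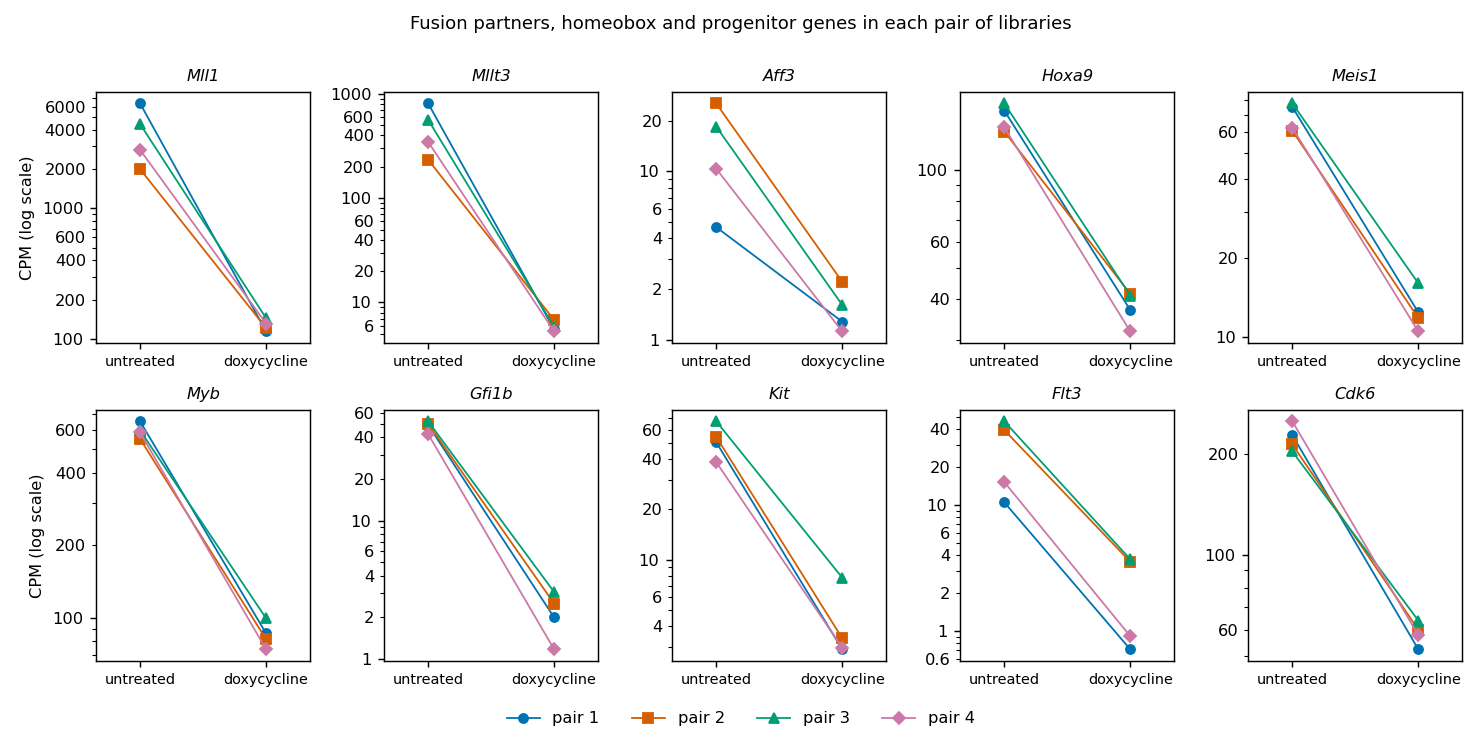
CPM (log axes) of the 2 fusion partners, Aff3, homeobox and progenitor genes, Kit, Flt3 and Cdk6 in each library; a line joins the untreated and doxycycline library of a pair. Mll1 spans 1998 to 6369 CPM untreated and 114 to 144 CPM in doxycycline, and each of the 10 genes is lower in doxycycline in all 4 pairs.

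Homeobox genes are the best known targets of MLL fusions: HOXA proteins and their TALE partners MEIS1 and PBX3 bind DNA together. Of 19 measured, 12 fell and 4 rose (63.2% and 21.1%, median −0.86). Hoxa9 was at 152, 131, 159.9 and 135 CPM and 37, 41.5, 41 and 31.8 CPM (−1.93 ± 0.10, adjusted p = 5.0e-07), and Meis1 at 75, 60.9, 77.4 and 62.5 CPM and 12.4, 11.8, 16 and 10.5 CPM (−2.45 ± 0.13, 6.6e-07). For both genes the groups did not overlap. Along the Hoxa cluster on chromosome 6 (GRCm38, Hoxa2 from 52162417 to Hoxa10 at 52240854), the fall was not even: the change was −0.86 for Hoxa2, −1.53 for Hoxa3, −1.13 for Hoxa4, −1.91 for Hoxa5, −1.99 for Hoxa6, −1.75 for Hoxa7, −1.93 for Hoxa9 and −0.64 for Hoxa10. Genes from Hoxa5 to Hoxa9 thus had the lowest values, with Hoxa2 and Hoxa10 closer to 0. Hoxa10 still stood at 20.8, 18.9, 21.2 and 18 CPM after doxycycline, from 30.5, 29.8, 31.5 and 30.7 CPM. Among the cofactors, Pbx3 and Pbx4 fell (−1.49 and −1.06), and Pbx2 rose (0.61). Tgif1, a TALE repressor, rose from 25.2, 24.7, 22.3 and 24.6 CPM to 46.7, 47.4, 45.2 and 43.7 CPM (0.92 ± 0.06), Tgif2 rose as well (0.72, and 0.48 with library totals, adjusted p = 0.0706, where the call was lost), and so did Meis3, a relative of Meis1, at low levels (1.84).

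Transcription factors of stem and progenitor cells mostly fell: 17 of 27 (63.0%), 13 of them at least 2-fold, with a median of −1.02. Myb, needed for self-renewal, was at 653, 552, 599 and 587 CPM and 85.9, 81.3, 99.3 and 73.8 CPM (−2.82 ± 0.09, adjusted p = 1.9e-07). Gfi1b, a repressor of erythroid and megakaryocyte progenitors, had the largest change of the list, from 49.3, 50.3, 52.4 and 42.4 CPM to 1.99, 2.51, 3.04 and 1.17 CPM (−4.54 ± 0.25, 7.1e-07). Sox4, a stem cell factor, fell from 10.5, 15.6, 16.7 and 7.58 CPM to 2.91, 3.05, 3.34 and 1.99 CPM (−2.10 ± 0.26). None of these groups overlapped, which the naming rule required. Erg fell by 1.63 on the log2 scale and Gata2 by 0.89, while Fli1, a close relative of Erg, had 0.10 ± 0.07 (adjusted p = 0.23). Fli1 had −0.14 (0.0439) with library totals and 0.16 (0.0436) without the doxycycline library of pair 2. Ikzf2, an Ikaros family factor, differed between pairs more than between groups: it was at 30.8, 29.5, 16.9 and 1.81 CPM untreated and 3.72, 4.52, 2.80 and 0.605 CPM in doxycycline, lowest in pair 4 in both, and it was lower with doxycycline in each pair (−2.47 ± 0.94, adjusted p = 0.0414). The call of Ikzf2 was lost with no variance trend (0.0649), with voom weights (0.124) and without any of 6 of the 8 libraries (0.0536 to 0.105). 3 members rose. Hmga2, a chromatin protein of foetal stem cells, went from 8.96, 8.40, 14.9 and 9.76 CPM to 25, 23.2, 50.1 and 26.2 CPM (1.53 ± 0.26, 6.0e-04), highest in pair 3, beside smaller rises of Trib1 (1.28) and Lyl1 (0.19). The call of Lyl1 was lost under quantile normalization (0.06, adjusted p = 0.467) and without any of 4 of the 8 libraries (0.067 to 0.0791), and its direction turned with library totals (−0.05, adjusted p = 0.574). Lin28b and Igf2bp3, RNA-binding proteins of foetal cells that were named after their values were seen, fell: Lin28b, which blocks let-7 maturation, was at 25.6, 19.2, 47.1 and 79 CPM and 3.57, 1.72, 7.39 and 8.56 CPM (−3.04 ± 0.56, 0.00104), and Igf2bp3 was at 94.4, 80.9, 95.4 and 103 CPM and 72.4, 69.6, 75.4 and 79.8 CPM (−0.33 ± 0.08). Myc, the growth regulator, fell from 139, 148, 137 and 133 CPM to 68, 71.1, 74.3 and 53.2 CPM (−1.07 ± 0.10, 9.6e-06), with its lowest value in pair 4.

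Factors of monocytes and macrophages moved the other way. Of 35 measured, 31 rose (88.6%, against 31.3% of all genes) and 2 fell, with a median of 1.60. Maf, a large Maf protein of macrophages, was at 4.79, 9.53, 4.68 and 12.5 CPM and 56.7, 77.2, 54 and 129 CPM (3.37 ± 0.37, adjusted p = 3.5e-05). Maf was highest in pair 4 in both groups. Bhlhe41, a repressor found in tissue macrophages, went from 4.08, 3.99, 3.93 and 6.04 CPM to 90.3, 77.3, 70.4 and 69.8 CPM (4.10 ± 0.15, 2.3e-07). Id2, which blocks E-protein transcription factors, was at 21.4, 33.5, 25.5 and 30.3 CPM and 80.4, 92.6, 82.5 and 90.4 CPM (1.66 ± 0.13, 3.4e-06). Factors that open the lineage earlier changed less: Spi1 (PU.1, listed as Sfpi1) went from 262, 243, 238 and 271 CPM to 384, 358, 362 and 370.3 CPM (0.54 ± 0.05). Irf8 had overlapping groups at 136, 224, 181 and 139 CPM and 196, 248, 225 and 208 CPM (0.39 ± 0.15, 0.046), a call lost in most alternatives. Cebpa fell from 167, 182, 171 and 155 CPM to 126, 124, 136 and 124 CPM (−0.40 ± 0.06). For Irf8 the change was 0.27 under quantile normalization (0.164) and 0.15 on library totals (0.424), and the adjusted p was 0.0716 with no variance trend and 0.0565 to 0.118 without any of 6 of the 8 libraries. The stimulus-responsive Atf3, Egr1, Egr2, Egr3, Fos and Jun rose by 1.87 to 3.21, and Klf2, Klf4 and Klf6 by 1.96 to 2.71. In the MiT family of lysosomal and macrophage regulators, Tfeb rose from 23.5, 28.2, 25.8 and 26.4 CPM to 60.4, 62.4, 57.4 and 62.4 CPM (1.22 ± 0.06) and Mitf rose as well (2.04). Tfec went from 48.7, 28.2, 30.2 and 38.1 CPM to 25.4, 25.4, 26.5 and 27.4 CPM (−0.44 ± 0.15, 0.0276), a fall that was lost when any of 4 single libraries was left out, the untreated library of pair 4 or the doxycycline library of pair 1, 2 or 3 (adjusted p from 0.0515 to 0.0644).

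Among chromatin regulators, the polycomb list, whose proteins write and read repressive histone marks, had 18 of 28 that fell and 6 that rose (64.3% and 21.4%, median −0.43). Ezh2, the methyltransferase of dividing cells, was at 141, 142, 149.6 and 133 CPM and 67.2, 74.8, 70.8 and 68.4 CPM (−1.01 ± 0.05, adjusted p = 5.3e-07), while Ezh1, its counterpart of resting cells, rose (0.39 ± 0.06, and 0.15 with library totals, adjusted p = 0.063, where the call was lost). Phf1, an accessory subunit, rose from 16.4, 17.1, 17.9 and 16.3 CPM to 38.6, 44.7, 37.7 and 36.8 CPM (1.22 ± 0.07, 8.9e-07), whereas its paralogs Mtf2 and Phf19 fell (−0.61 and −0.62). Phc1 and Kdm2b, of the other polycomb complex, fell (−1.05 ± 0.11 and −0.69 ± 0.06). Of 24 histone demethylases 2 rose (8.33%, and 5 with the pairs as a block) and 9 fell (37.5%, near the 33.8% of all genes). Kdm8 was lowest (−0.72 ± 0.08). Kdm7a (listed as Jhdm1d), which removes repressive marks, went the other way, at 38.7, 35.1, 35.2 and 45 CPM and 124, 102, 126 and 134 CPM (1.66 ± 0.10, 1.1e-06). Of 17 deacetylases and sirtuins 8 fell and 5 rose (47.1% and 29.4%, against 33.8% and 31.3% of all genes), so the rises were near the background. The class I enzymes Hdac1, Hdac2, Hdac3 and Hdac8 were among the falls (−0.54 to −0.33). Class IIa Hdac4 rose (20.8, 19, 17.6 and 21.1 CPM to 33.2, 27.6, 33 and 34.5 CPM, 0.71 ± 0.09), as did Hdac5 and Hdac9, although class IIa Hdac7 fell (−0.60). Hdac5 (0.18 ± 0.06) lost its call without any of 6 of the 8 libraries, under quantile normalization (0.06, adjusted p = 0.468) and with no variance trend, and turned to −0.06 (adjusted p = 0.53) with library totals. Hdac9 (0.54 ± 0.19, adjusted p = 0.0289) lost its call with library totals (0.30, 0.208) and without any of 5 of the 8 libraries (0.0528 to 0.076). Sirt2, the cytosolic sirtuin, rose from 61.3, 54.1, 61.7 and 65.1 CPM to 132, 121, 122 and 122 CPM (1.04 ± 0.06), and the mitochondrial Sirt3 fell (−0.75 ± 0.09). Of 315 zinc finger genes with a Zfp symbol, 52 rose (16.5%) and 107 fell (34.0%), against 33.8% and 31.3% of all genes for falls and rises. Zfp507 had −1.71 ± 0.17, Zfp28 1.54 ± 0.18 and Zfp36 (tristetraprolin), which destabilises inflammatory mRNAs, 1.66 ± 0.15 (adjusted p = 1.6e-05, 5.3e-05 and 9.1e-06). With library totals 3 polycomb genes rose, not 6, the demethylases that fell were 16, not 9, the deacetylases that rose 2, not 5, and the zinc finger genes 20 up and 196 down.

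Receptors for growth factors and cytokines set which signals a cell can take. Of 33 measured, 24 rose (72.7%) and 5 fell (15.2%), median 0.89. The 2 that fell most are the tyrosine kinase receptors of progenitors: Kit was at 50.5, 54.4, 67.3 and 38.4 CPM and 2.91, 3.39, 7.81 and 2.98 CPM (−3.72 ± 0.31, adjusted p = 5.7e-06), and Flt3 at 10.5, 39.3, 46.1 and 15.2 CPM and 0.714, 3.54, 3.70 and 0.908 CPM (−3.74 ± 0.65, 7.4e-04). Flt3 was lower in pairs 1 and 4 than in pairs 2 and 3 in both groups. Il9r, outside the list, went from 6.96, 2.69, 12.5 and 18.5 CPM to 0.816, 1.18, 1.55 and 1.08 CPM (−2.82 ± 0.52, 9.8e-04), so that its untreated libraries spread more than its treated ones. The receptors of mature phagocytes rose: Csf1r, for the growth factor of macrophages, was at 176, 278, 203 and 232 CPM and 779, 1032, 873 and 984 CPM (2.06 ± 0.14, 1.8e-06). Csf3r, Csf2rb and Csf2ra, of the neutrophil and granulocyte-macrophage factors, rose by 1.64, 1.09 and 0.74. Il7r, a lymphoid receptor that foetal macrophages also express, was at 8.92, 10.7, 12.3 and 15.2 CPM and 115, 102, 86.7 and 92.7 CPM (3.09 ± 0.15, 4.7e-07). Il3ra and Il4ra had 0.18 ± 0.12 and 0.10 ± 0.11 (adjusted p = 0.204 and 0.416), and Il3ra passed without the doxycycline library of pair 3 (0.27, 0.0409).

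Phagocytic and pattern recognition receptors, through which macrophages sense and engulf microbes and dead cells, mostly rose: 41 of 44 rose (93.2%), 38 of them at least 2-fold, and 0 fell, with a median of 1.75. Clec4n (dectin-2), a C-type lectin for fungal sugars, was at 1.96, 3.25, 2.01 and 3.86 CPM and 39.9, 42.6, 45.6 and 57.1 CPM (4.10 ± 0.22, adjusted p = 6.7e-07). Clec4a1, a neighbouring lectin, was at 0.708, 1.60, 0.856 and 2.98 CPM and 10.9, 24.2, 14 and 29.2 CPM (3.77 ± 0.46). Msr1, the class A scavenger receptor, was at 4.04, 5.50, 4.63 and 9.86 CPM and 60.5, 64, 60.0 and 115 CPM (3.67 ± 0.30, 4.9e-06). For all 3, which the rule picked among genes with separate groups, the doxycycline library of pair 4 was the highest. Trem2, a lipid-sensing receptor, rose from 51, 49, 39.4 and 67 CPM to 459.7, 452, 376 and 447 CPM (3.09 ± 0.14). The scavenger receptors Cd36 and Scarb1 and the inhibitory lectin Clec12a did not pass (−0.70 ± 0.36, 0.11 ± 0.06 and 0.15 ± 0.10); with the pairs as a block Cd36 passed as a fall and Clec12a as a rise (adjusted p = 0.0392 and 0.037). Cd36 also passed as a fall with library totals (0.0384), Scarb1 as a rise without the doxycycline library of pair 4 (0.16, 0.0309) and Clec12a without the untreated library of pair 2 (0.25, 0.019). The Fc receptors Fcgr1, Fcgr2b, Fcgr3 and Fcgr4, which bind antibody-coated particles, rose by 1.17 to 2.05, Fcgr1 with an adjusted p of 0.00789 that was 0.0541 without pair 3.

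Receptors of the CD300 family were the 2 called members with the smallest p whose promoter window holds the letters GAGGAAGT (a PU.1-type ETS site). Cd300ld was at 27.9, 28.8, 28.5 and 35.5 CPM and 96, 92.7, 93.2 and 104 CPM (1.68 ± 0.08), and Cd300lf at 20.4, 29.4, 28.6 and 38.2 CPM and 205, 158, 186 and 207 CPM (2.72 ± 0.17). Both genes lie on mouse chromosome 11, and their RefSeq promoter windows (GRCm38.p6, 250 bases before to 50 after the start) are chr11:114989837-114990136 (minus strand) and chr11:115133943-115134242 (minus strand). They are printed 5′ to 3′ on the gene's strand, with GAGGAAGT in capitals, to show that the match lies before the start in one and just after it in the other:
Cd300ld: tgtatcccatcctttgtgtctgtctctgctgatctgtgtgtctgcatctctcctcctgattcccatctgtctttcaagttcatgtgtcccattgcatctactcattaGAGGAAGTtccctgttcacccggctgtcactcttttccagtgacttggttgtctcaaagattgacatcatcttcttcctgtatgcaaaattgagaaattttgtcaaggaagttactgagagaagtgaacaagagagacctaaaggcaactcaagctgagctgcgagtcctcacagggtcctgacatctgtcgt
Cd300lf: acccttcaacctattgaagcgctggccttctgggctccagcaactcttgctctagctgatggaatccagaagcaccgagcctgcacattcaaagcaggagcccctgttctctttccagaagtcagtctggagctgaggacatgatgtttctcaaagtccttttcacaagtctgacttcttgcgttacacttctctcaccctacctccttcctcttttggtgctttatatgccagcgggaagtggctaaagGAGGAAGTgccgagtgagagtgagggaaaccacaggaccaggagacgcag
Of the promoter windows of the list, 12.2% (5 of 41) held GAGGAAGT on either strand, against 3.44% over all genes tested and 3.20% of every window in the RefSeq table. A match is a description of these letters, not of a factor bound there.

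Receptors that steer migration also rose: 20 of 24 rose (83.3%), 0 fell, median 1.77. Fpr1, which senses bacterial formyl peptides, was at 0.583, 1.78, 0.353 and 5.25 CPM and 31.5, 18.8, 25.9 and 64.2 CPM (4.70 ± 0.75, adjusted p = 4.1e-04), and Fpr2 at 1.04, 2.64, 1.06 and 4.84 CPM and 21.3, 21.2, 23.8 and 46.6 CPM (3.76 ± 0.49). Both were highest in pair 4 in both groups. P2ry6, for nucleotides of dying cells, was at 3.13, 4.98, 2.62 and 6.18 CPM and 45.8, 52.1, 46.1 and 66.1 CPM (3.70 ± 0.26). Cx3cr1, of patrolling monocytes, rose from 47.5, 110.2, 73.1 and 78.9 CPM to 169, 274, 201 and 222 CPM (1.52 ± 0.23). Ccr2, the receptor by which inflammatory monocytes leave the marrow, had overlapping groups at 145, 258, 212 and 114 CPM and 153, 380.0, 209 and 197 CPM (0.35 ± 0.31, 0.345), and passed with the pairs as a block (0.0345). Cxcr4 and P2ry14 did not pass either (0.22 ± 0.10 and −0.23 ± 0.27), but Cxcr4 passed with the block (0.0365) and without the untreated library of pair 2 (0.30, 0.0147).

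Of 12 chemokine ligands, 11 rose (91.7%), median 2.40. Ccl6, a macrophage and neutrophil chemokine, was at 8.42, 16.9, 10.2 and 22.9 CPM and 297, 246, 264 and 445 CPM (4.49 ± 0.31, adjusted p = 2.0e-06). Ccl2, which draws monocytes, went from 3.63, 6.11, 2.47 and 6.00 CPM to 72.1, 55.2, 50.1 and 77.2 CPM (3.87 ± 0.28), and Cxcl2, which draws neutrophils, from 0.417, 0.736, 0.907 and 0.837 CPM to 15.7, 13.9, 16.9 and 9.73 CPM (4.26 ± 0.26). The groups were apart for each, which the naming rule required. Ccl3, Ccl4, Ccl7, Ccl9, Cxcl3, Cxcl16, Cklf and Pf4 rose by 0.57 to 3.86, Pf4 with an adjusted p of 0.0135 that was 0.0612 without pair 3. Cxcl10, an interferon target, did not pass (−0.42 ± 0.26, 0.181), but did as a fall with library totals (0.0485) and without the doxycycline library of pair 2 (0.0479).

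Adhesion molecules of leukocytes changed in composition: 20 of 28 rose and 5 fell (71.4% and 17.9%). Itgax (CD11c) went from 9.13, 26.8, 21 and 20.6 CPM to 83.9, 59.7, 93.8 and 69.8 CPM (2.07 ± 0.30, adjusted p = 2.1e-04). Pecam1, present on progenitors and endothelium, fell from 249, 254, 248 and 251 CPM to 73.9, 75.2, 90.1 and 63.9 CPM (−1.74 ± 0.09), and Itga4, which anchors progenitors, fell by 1.34. Cd47, the signal that restrains phagocytes, fell by 0.74.

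Antigen presentation moved in parts. On the class II side 6 of 14 rose and 3 fell (42.9% and 21.4%, against 31.3% and 33.8% of all genes). The invariant chain Cd74 was at 1.88, 9.18, 2.67 and 1.72 CPM and 11.8, 35.3, 21.1 and 14.6 CPM (2.65 ± 0.53, adjusted p = 0.00165), and the protease that trims it, Ctss, at 43.3, 73.2, 51.2 and 76.2 CPM and 451, 545, 396 and 614 CPM (3.06 ± 0.20, 1.5e-06). March1, the ligase that removes class II and CD86 from the surface, went from 3.75, 6.54, 4.03 and 6.88 CPM to 43.5, 45.2, 41.7 and 58.7 CPM (3.19 ± 0.21), and the costimulatory Cd80 from 1.58, 1.30, 1.36 and 2.74 CPM to 10.2, 8.36, 11 and 13.6 CPM (2.66 ± 0.25), beside Cd86 (2.08) and Cd40 (1.07). The peptide-binding chains themselves did not pass: H2-Aa was at 2.63, 5.24, 2.62 and 1.58 CPM and 1.68, 4.38, 4.47 and 1.34 CPM (−0.09 ± 0.47), H2-Eb1 had 0.46 ± 0.57, and H2-Ab1 −0.57 ± 0.27 (adjusted p = 0.0927, and 0.00282 as a fall with the pairs as a block). Without the doxycycline library of pair 2 H2-Ab1 passed as a fall too (−0.81, 0.0108), as it did with library totals (0.0292). Of the peptide editors, H2-DMa, H2-Oa and H2-Ob fell (−0.52, −0.97 and −1.62) and H2-DMb1 and H2-DMb2 did not pass (0.19 ± 0.09 and 0.25 ± 0.13), although both did as rises with the block (0.0409 and 0.0246). The call of H2-DMa was lost without pair 1 or pair 3 (0.0593 and 0.0706). H2-Ob was at 54.3, 128, 88.6 and 51.5 CPM and 24.3, 41.4, 25.9 and 13.7 CPM, highest in pair 2 in both groups.

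The class I list was near the background, with 6 of 23 up and 9 down (26.1% and 39.1%). B2m, the shared light chain, rose from 883, 1127, 892 and 987 CPM to 1600.4, 1759, 1492 and 1528 CPM (0.72 ± 0.09), with H2-D1 and H2-T23 (0.66 and 0.63). Under quantile normalization the change of H2-D1 was 0.13 and its call was lost (adjusted p = 0.221). Genes of peptide supply were among the falls: Tap2, of the peptide transporter, fell from 313, 371, 356 and 281 CPM to 153, 180.2, 153 and 139 CPM (−1.08 ± 0.10), and Psmb8, of the immunoproteasome, from 244, 299, 272 and 224 CPM to 169.7, 195, 158 and 152 CPM (−0.62 ± 0.10). H2-Q6 and H2-Q7 fell (−1.46 and −1.30), and since their sequences are near-identical to each other the counting could split their reads. Calr, a chaperone of class I assembly, fell from 2065, 1777, 1976 and 2086 CPM to 1143, 1024, 1165 and 1145 CPM (−0.82 ± 0.08).

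Neutrophil granules are filled in order, azurophil proteins in promyelocytes and the specific and gelatinase proteins later, and the 2 lists moved in opposite directions. Of 15 primary granule genes 10 fell and 3 rose (median −1.15). Ctsg (cathepsin G) was at 1371, 958, 1169 and 1322 CPM and 220.3, 239, 301 and 153 CPM (−2.43 ± 0.19, adjusted p = 4.3e-06), and Elane (neutrophil elastase) at 219, 188, 217 and 258 CPM and 47.4, 50.4, 87 and 47.5 CPM (−1.97 ± 0.19). Prtn3 and Ms4a3 fell as well (−1.35 and −1.59), also Clec11a, Prg2, Serpinb1a, Calr, Cst7 and Srgn (−1.61 to −0.50). The call of Prg2 (adjusted p = 0.0352) was lost with no variance trend (0.0531) and without any of 5 of the 8 libraries (0.0557 to 0.0912). Mpo, the myeloperoxidase of this granule, was at 156, 143, 538 and 169 CPM and 44.3, 50.2, 299 and 109 CPM: lower with doxycycline in each pair, but with pair 3 above the rest in both groups, so that the groups overlapped (−1.20 ± 0.63, adjusted p = 0.119, and 3.7e-04 with the pairs as a block). Without the doxycycline library of pair 3 Mpo passed as well (−1.76, 0.0137). Prss57 had −0.45 ± 0.27 (0.169), and passed without that library (−0.67, 0.0328) and with library totals (0.0426). Among the 3 that rose, Ctsc, which activates the granule proteases, went from 155, 141, 136 and 161 CPM to 387, 375, 403 and 443 CPM (1.44 ± 0.07), beside Gstm1 (0.61).

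Of 26 late granule and secreted genes 24 rose (92.3%, 23 of them at least 2-fold) and 1 fell, median 2.74. Mmp9 (gelatinase B) was at 15.4, 33.7, 24.4 and 73.1 CPM and 1054, 532, 1117 and 1390.0 CPM (4.96 ± 0.45, adjusted p = 1.1e-05). Stfa2, a cysteine protease inhibitor whose near copies Stfa1 and Stfa3 could share its reads, was at 7.54, 27.3, 19.7 and 65.4 CPM and 843, 369.8, 719.8 and 772 CPM (4.83 ± 0.56), and S100a9, of the calprotectin pair, at 237, 394, 243 and 893 CPM and 4608, 1994, 3249 and 4230.1 CPM (3.15 ± 0.42). In each of the 3 the untreated library of pair 4 was the highest untreated one and the doxycycline library of pair 2 the lowest treated one. Lyz2 (lysozyme) went from 2619, 2309, 2178 and 4839 CPM to 33077, 21377, 24245 and 28718 CPM (3.23 ± 0.26), and Retnlg, a resistin-like protein, from 0.375, 4.76, 0.806 and 8.74 CPM to 25.2, 22.8, 25.6 and 56.5 CPM (3.97 ± 0.88, 0.00303). Ltf, Camp and Ngp of the specific granule rose by 3.54, 2.33 and 3.11. The exceptions were Mcpt8, a basophil protease on the list, which fell (−1.64), and Hp, with −0.03 ± 0.13 (0.835). Summed over the list, the level was 4345, 4448, 4151 and 9638 CPM in untreated libraries and 53184, 31419, 40674 and 47702 CPM in doxycycline, so the sum was higher in untreated pair 4 than in the other 3 untreated libraries. Lyz2 made up much of each sum: 4839 of 9638 CPM in untreated pair 4 and 33077 of 53184 CPM in doxycycline pair 1.

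**Figure D3:**
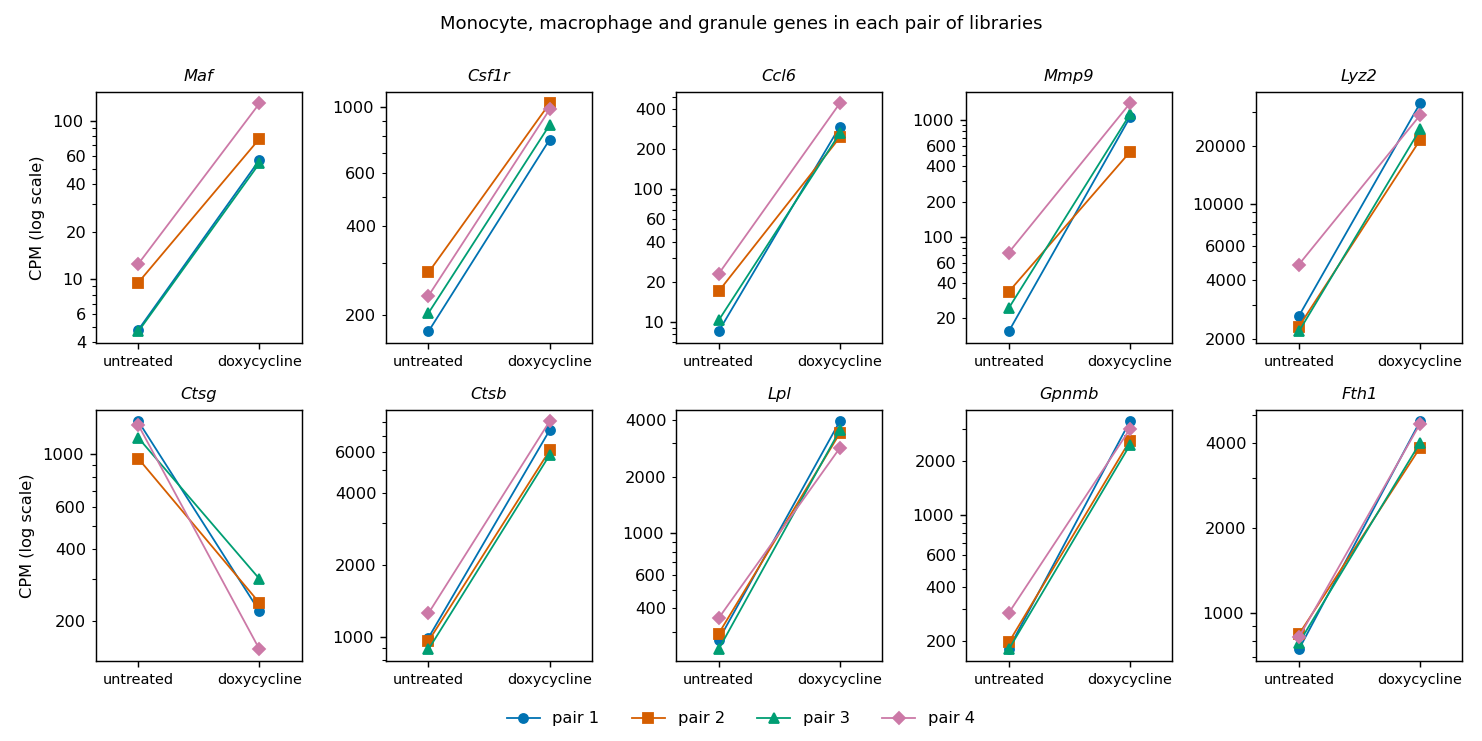
CPM (log axes) of 10 monocyte, macrophage and granule genes in each library, with a line for each pair. Ctsg falls in all 4 pairs and the other 9 genes are higher in doxycycline; untreated pair 4 is the highest untreated library for Mmp9 (73.1 CPM) and Lyz2.

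Lysosomal genes rose together: 42 of 49 hydrolases and membrane proteins (85.7%), 23 of them at least 2-fold, and 0 fell (median 0.87). Ctsb was at 989.8, 958, 885 and 1255 CPM and 7373, 6063, 5804 and 8043 CPM (2.74 ± 0.14, adjusted p = 5.6e-07), and Ctsd at 1007, 889, 999 and 1277 CPM and 7350.0, 5572, 6569 and 7330.3 CPM (2.69 ± 0.13). Both are cathepsins, the acid proteases of the lysosome. Lgmn (legumain), which processes cathepsins, was at 35, 44.1, 30.7 and 63.8 CPM and 598, 464, 426 and 676 CPM (3.67 ± 0.23), and Psap, the source of the saposins that aid lipid breakdown, at 622, 775, 643 and 874 CPM and 4742, 5449, 3841 and 6482 CPM (2.80 ± 0.17). No group overlapped. Summed over the list, untreated libraries held 10478, 9779.6, 9670.3 and 12026 CPM and doxycycline libraries 36077, 32772, 30847 and 39579 CPM. Gusb, Smpd1, Manba, Arsa, Arsb, Acp5 and Dnase2a did not pass (−0.08 to 0.25); with the pairs as a block Gusb, Smpd1, Arsb and Dnase2a passed as rises (adjusted p = 0.0276, 0.0302, 0.0427 and 0.00413). Without the doxycycline library of pair 4 Arsa and Arsb passed (0.23, 0.0408, and 0.30, 0.00162). Arsa also passed without the untreated library of pair 4 (0.0174). Dnase2a passed without the untreated library of pair 1 or the doxycycline library of pair 3 (0.0192 and 0.0227). With library totals Manba passed as a fall (−0.21, 0.00969).

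The TFEB and TFE3 factors bind the letters TCACGTGA, and the 2 called members with the smallest p and those letters were Ctsd and Ctsa. Ctsa, a carboxypeptidase that protects other lysosomal enzymes, was at 421, 427, 423 and 501 CPM and 1067, 1107, 919 and 1132 CPM (1.25 ± 0.08). The windows, chr7:142387778-142388077 (minus strand) and chr2:164833523-164833822 (plus strand) on GRCm38.p6, are shown with each match in capitals; Ctsd has it 99 bases before the start, and Ctsa has 2, which begin 13 bases before the start and at base 5 after it:
Ctsd: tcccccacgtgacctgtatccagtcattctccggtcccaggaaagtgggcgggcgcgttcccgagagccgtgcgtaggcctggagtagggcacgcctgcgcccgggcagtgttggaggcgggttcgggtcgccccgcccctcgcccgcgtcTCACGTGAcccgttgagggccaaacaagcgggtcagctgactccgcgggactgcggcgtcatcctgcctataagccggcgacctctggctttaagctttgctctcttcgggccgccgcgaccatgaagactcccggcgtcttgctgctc
Ctsa: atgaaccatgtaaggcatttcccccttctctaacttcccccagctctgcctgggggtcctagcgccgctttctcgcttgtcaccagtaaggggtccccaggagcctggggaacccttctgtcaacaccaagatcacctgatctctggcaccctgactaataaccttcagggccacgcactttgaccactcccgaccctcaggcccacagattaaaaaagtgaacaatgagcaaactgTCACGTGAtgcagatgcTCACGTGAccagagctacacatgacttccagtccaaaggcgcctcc
TCACGTGA was in 10.9% of the promoter windows of this list (5 of 46) and in 1.86% over all genes tested. It was in 1.47% and 1.09% of the windows of genes that rose or fell at least 2-fold. The shorter core CACGTG, which TCACGTGA contains, was in 28.3% of the list's windows, and in 9.99%, 9.26% and 9.33% of those sets. The letters were not particular to lists that rose. Of the cytosolic tRNA synthetases, most of which fell, 2 of 12 windows held TCACGTGA (16.7%) and 4 held CACGTG (33.3%). In the nucleotide synthesis list, which also mostly fell, the shares were 0% and 20%.

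The proton pump that acidifies lysosomes rose in 15 of 19 subunits with no falls (78.9%, median 0.68). Atp6v0c, of its membrane ring, was at 264, 221, 233 and 289 CPM and 648, 579, 612 and 702 CPM (1.34 ± 0.09), Atp6v1b2 at 254, 239, 232 and 294 CPM and 769.8, 608, 696 and 782 CPM (1.49 ± 0.10), and Atp6v0d2, the macrophage and osteoclast isoform, at 1.29, 1.21, 1.41 and 2.42 CPM and 12.5, 13.7, 15 and 8.60 CPM (2.98 ± 0.25), against 0.13 ± 0.07 for its ubiquitous counterpart Atp6v0d1 (adjusted p = 0.14, and 0.0306 with the block). Autophagy genes moved less: 22 of 37 rose and 4 fell, median 0.24, and with library totals 8 rose, 10 fell and the median was −0.00. Atg7 (53.7, 47.6, 49.1 and 58.4 CPM to 134, 119, 127 and 145 CPM, 1.33 ± 0.08) and Tfe3 (0.89 ± 0.08) rose under both scalings, and Atg12 fell (−0.64 ± 0.07).

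Lipid handling rose in 23 of 29 genes with no falls (79.3%, median 1.70). Pla2g7, which hydrolyses platelet-activating factor, was at 3.33, 2.77, 1.71 and 6.42 CPM and 141, 129, 119 and 171 CPM (5.44 ± 0.33, adjusted p = 1.1e-06). Lpl, the lipoprotein lipase, was at 271, 293, 242 and 354 CPM and 3929, 3392, 3519 and 2833 CPM (3.56 ± 0.13, 2.3e-07), and Gpnmb, a glycoprotein of lipid-loaded macrophages, at 182, 197, 180.3 and 287 CPM and 3317, 2593, 2449.7 and 3002 CPM (3.76 ± 0.16, 2.4e-07). All 3 had separate groups, which the naming rule required. The fatty acid binding proteins Fabp3, Fabp4 and Fabp5 rose by 1.89 to 3.12, and Apoe and Abcg1 by 1.71 and 2.07. Abca1, the other sterol exporter, was at 6.42, 8.71, 9.67 and 13.8 CPM and 10.7, 11.5, 17.5 and 23.4 CPM (0.69 ± 0.29, 0.0591, and 2.2e-04 with the pairs as a block). Abca1 also passed without the untreated library of pair 4 (0.88, 0.0218) or the doxycycline library of pair 1 or 2 (0.034 and 0.044).

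In eicosanoid metabolism 13 of 21 rose and 3 fell. The enzyme that destroys prostaglandins, Hpgd, fell from 359, 311, 366 and 246 CPM to 58.4, 74.8, 49.6 and 46.9 CPM (−2.49 ± 0.16, adjusted p = 1.6e-06), while Hpgds, which makes prostaglandin D2, rose from 7.83, 9.27, 9.17 and 9.90 CPM to 46.7, 49, 51.2 and 63.4 CPM (2.53 ± 0.11), and the receptor Ptger2 from 1.58, 2.25, 2.47 and 3.25 CPM to 14.3, 15.1, 16.5 and 14.3 CPM (2.69 ± 0.19). Ptges, Alox5ap and Tbxas1 rose by 1.00 to 1.69, and the cyclooxygenase Ptgs2 did not pass (0.46 ± 0.57, 0.497). Without the doxycycline library of pair 4 Ptgs2 rose by 1.03 (adjusted p = 0.0366), and without pair 4 by 1.15 (0.0367).

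Iron and redox genes rose in 24 and fell in 6 of 34 (3 fell without pair 3). Fth1, of the ferritin store, was at 746, 843, 786 and 823 CPM and 4762, 3843, 3999 and 4666 CPM (2.43 ± 0.09, adjusted p = 2.3e-07), Slc11a1, which pumps metal out of the phagosome, at 28.4, 33.4, 28.8 and 37.5 CPM and 232, 217, 195 and 273 CPM (2.84 ± 0.12), and Blvrb, of haem breakdown, at 18.2 to 20.1 CPM untreated and 90.9, 100.1, 75.6 and 74.1 CPM (2.12 ± 0.10). Hmox1 (1.53), Ftl1 (1.78) and the iron exporter Slc40a1 (1.72) rose too. Tfrc, the uptake receptor, fell from 212, 185, 181 and 203 CPM to 58.3, 48.5, 61.9 and 55.2 CPM (−1.81 ± 0.08, 3.3e-07). Among other genes of the list, Slc7a11, Gclm and Srxn1 rose (1.55, 0.62 and 0.64) and Gclc fell (−0.43). Nqo1 and Txnrd1 did not pass (0.45 ± 0.47 and 0.04 ± 0.05), Txnrd1 passing as a fall with library totals (−0.20, adjusted p = 0.00445).

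Cytoskeleton and membrane traffic changed by small amounts in many members. Of 40 actin and filament genes 28 rose and 3 fell (median 0.31), but 14 rose and 10 fell under quantile normalization and 16 and 9 with library totals. Actn1, Lmna and Tmsb10 rose under all 3 scalings: Actn1 (alpha-actinin 1) was at 54.4, 20.7, 39.4 and 44 CPM and 198, 100.1, 194 and 207 CPM (2.17 ± 0.32), lowest in pair 2 in both groups, Lmna at 15.5, 8.06, 14.6 and 12.3 CPM and 67.1, 45.6, 57.9 and 55 CPM (2.19 ± 0.20), and Tmsb10, a thymosin that binds actin, at 51.8, 73, 62.3 and 54.1 CPM and 217, 287, 229.8 and 202 CPM (1.96 ± 0.13). Lmna is the A-type lamin of stiff nuclei, and its B-type partners Lmnb1 and Lmnb2 fell (−0.75 and −0.65). Flna, a filamin that crosslinks actin, rose (0.60), a direction that turned under quantile normalization (−0.10, adjusted p = 0.32). Rab GTPases, which direct vesicles, rose in 28 and fell in 4 of 48 (7 fell with the pairs as a block and 10 with library totals). Rab7b (listed as 5430435G22Rik), a late endosome Rab of myeloid cells, was at 76.9, 63.6, 70.6 and 85.1 CPM and 213, 185, 183 and 179 CPM (1.36 ± 0.09), Rab19 and Rab20 rose (1.59 and 1.10), and Rab44 fell from 543, 539.8, 616 and 648 CPM to 297, 316, 340.3 and 264 CPM (−0.95 ± 0.09). Of 62 sorting nexins and VPS proteins 47 rose (75.8%) and 5 fell; with library totals 26 rose and 11 fell. Snx29 went from 8.75, 11.2, 8.66 and 8.65 CPM to 30.5, 30.5, 30.2 and 31.6 CPM (1.73 ± 0.09), with Snx24 and Snx8 behind (1.45 and 1.37), and Vps36 fell (−0.43).

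Of 41 Arhgef and Arhgap genes, which switch small GTPases on and off, 22 rose and 8 fell (13 and 13 with library totals). Arhgef37 was at 0.458, 1.21, 0.403 and 2.37 CPM and 13, 17.3, 12.7 and 22.8 CPM (4.18 ± 0.51), and Arhgap22, which turns Rac off, at 3.54, 3.47, 3.32 and 3.44 CPM and 21.9, 22.5, 21.8 and 20.8 CPM (2.65 ± 0.07, adjusted p = 7.4e-08), among the tightest groups of any gene. Arhgap24 rose (2.55 ± 0.16), and p190 RhoGAP (Grlf1) fell from 21.4, 22.1, 22.2 and 17.9 CPM to 11.1, 12.4, 13.3 and 12.9 CPM (−0.75 ± 0.09). The dual specificity phosphatases, which switch off MAP kinases, rose in 11 and fell in 4 of 18. Dusp6, the brake on ERK, rose from 145, 173, 177 and 181 CPM to 401, 367, 442 and 381 CPM (1.24 ± 0.08), Dusp1 from 6.88, 9.75, 9.37 and 7.49 CPM to 24.3, 57.4, 36.7 and 20.8 CPM (1.95 ± 0.29) and Dusp22 from 2.46, 3.55, 2.57 and 2.42 CPM to 16, 19.2, 14.8 and 15.4 CPM (2.57 ± 0.14), while Dusp2 fell (−1.38 ± 0.16). Of 222 solute carriers 90 rose and 58 fell (40.5% and 26.1%), a median of 0.13 that became −0.11 with library totals, where 91 fell. Slc37a2 and Slc15a3, transporters of phosphorylated sugar and of peptides in phagocytes, rose from 8.09, 11.2, 9.52 and 14.4 CPM to 98.3, 82.7, 77.3 and 114 CPM (3.12 ± 0.18) and from 10.1, 14.6, 14.5 and 14.7 CPM to 98.8, 105, 99.9 and 129 CPM (3.01 ± 0.13). Slc19a1, the folate carrier, fell from 40.8, 36.6, 36 and 39.1 CPM to 15.6, 15.9, 15.9 and 13.7 CPM (−1.32 ± 0.07).

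The cells still expressed the division machinery, at a lower level. All 50 DNA replication genes fell (against 33.8% of all genes), with a median of −0.84 and pair medians of −0.89, −0.81, −0.90 and −0.86. Mcm2, of the helicase, was at 329.6, 301, 312 and 309 CPM and 132, 141, 142 and 133 CPM (−1.19 ± 0.05, adjusted p = 2.4e-07), Mcm10 at 97.6, 95.2, 94.7 and 94.6 CPM and 45.8, 46.5, 45.4 and 44 CPM (−1.07 ± 0.04), and Ung, which removes uracil from DNA, at 26.5, 27, 27.6 and 23.5 CPM and 10.6, 11.5, 12.2 and 11.5 CPM (−1.19 ± 0.07). The falls ran from −1.21 for Cdc6 to −0.36 for Pold3, with Pcna, the sliding clamp, at −0.37. Summed, the list went from 6493, 6312, 6436 and 6258 CPM to 3515, 3621, 3592 and 3588 CPM, and the groups did not overlap.

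The letters TTTCCCGC and TTTGGCGC are those bound by E2F factors, and Cdc6 and Mcm3 were the called members with the smallest p that hold either. Cdc6, which loads the helicase, was at 78, 72.3, 73.2 and 75.6 CPM and 31.8, 32.2, 34.2 and 31.1 CPM (−1.21 ± 0.05), and Mcm3 at 419, 413, 408 and 403 CPM and 205, 216, 207 and 209 CPM (−0.97 ± 0.04). In the windows chr11:98907901-98908200 (plus strand) and chr1:20820263-20820562 (minus strand) (GRCm38.p6) the capitals mark TTTCCCGC, on the other strand in both and so written GCGGGAAA, and, in Mcm3, TTTGGCGC. The Cdc6 match begins 138 bases before the start and those of Mcm3 at bases 20 and 39 after it:
Cdc6: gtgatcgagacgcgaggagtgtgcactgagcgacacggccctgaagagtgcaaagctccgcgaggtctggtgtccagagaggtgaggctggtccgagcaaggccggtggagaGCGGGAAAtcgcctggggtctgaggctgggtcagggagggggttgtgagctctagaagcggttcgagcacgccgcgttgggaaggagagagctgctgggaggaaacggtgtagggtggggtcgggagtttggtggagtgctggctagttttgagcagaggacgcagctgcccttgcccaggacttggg
Mcm3: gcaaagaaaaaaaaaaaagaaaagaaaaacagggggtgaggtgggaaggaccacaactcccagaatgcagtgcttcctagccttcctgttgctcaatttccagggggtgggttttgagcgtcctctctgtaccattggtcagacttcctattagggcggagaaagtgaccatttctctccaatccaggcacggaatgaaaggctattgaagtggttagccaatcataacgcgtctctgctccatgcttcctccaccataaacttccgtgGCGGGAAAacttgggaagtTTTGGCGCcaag
TTTCCCGC was in 14.9% of the windows of this list (7 of 47) and in 2.02% over all genes tested, and TTTGGCGC in 14.9% (7 of 47) and 0.945%. Over the genes that fell at least 2-fold the shares were 2.95% and 0.778%, beside 2.02% and 0.945%.

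Mitosis genes fell in 43 and rose in 2 of 46, by less (median −0.47). Top2a went from 790.0, 847, 801 and 781 CPM to 464, 512, 492 and 488 CPM (−0.72 ± 0.05), Kif15, a spindle motor, from 105, 116, 111 and 104 CPM to 61.4, 67.5, 63.7 and 63.5 CPM (−0.77 ± 0.05) and Mki67, the proliferation marker, from 1015, 1184, 980.0 and 1091 CPM to 693, 746, 717 and 733 CPM (−0.56 ± 0.07). Cdc25b, a phosphatase that starts mitosis, rose from 59.3, 63.1, 55.8 and 69.2 CPM to 138, 127, 115 and 123 CPM (1.03 ± 0.08, adjusted p = 2.9e-06). The genes that gate entry into the cycle were mixed, 13 up and 15 down of 37 (35.1% and 40.5%, near the 31.3% and 33.8% of all genes). Cdk6, a kinase that MLL-rearranged leukaemia depends on, had the largest fall, from 227, 213, 203 and 249.6 CPM to 52.4, 59.9, 63.8 and 57.7 CPM (−1.93 ± 0.08, 2.4e-07), and Cdk4 fell less (−0.50). Of the D cyclins, Ccnd1 rose from 166, 168, 169 and 173 CPM to 271, 287, 305 and 256 CPM (0.72 ± 0.06), and the E cyclins fell (−0.48 and −0.79). Ccnd2 and Ccnd3 rose by 0.55 and 0.21 (adjusted p = 0.048 and 0.0158), calls that did not hold in other settings. That of Ccnd2 was lost under quantile normalization (0.118), library totals (0.242) and no variance trend (0.0744) and without any of 5 of the 8 libraries (0.0592 to 0.127). Ccnd3 had 0.09 (0.173) under quantile normalization and turned to −0.03 (0.612) with library totals. Of the inhibitors, Cdkn1a rose from 127, 115, 126 and 134 CPM to 207, 228, 239 and 187 CPM (0.78 ± 0.08) and Cdkn2b at low levels (1.74 ± 0.34), and Cdkn2c fell (−0.42). Cdkn1b did not pass (−0.13 ± 0.08), but did as a fall under quantile normalization (0.0451), with library totals (0.00514) and without the doxycycline library of pair 2 (0.0287). The antiproliferative Btg1, Btg2 and Tob1 rose; Btg2 was at 11.3, 15.6, 12.3 and 14.6 CPM and 45, 48.5, 41.6 and 44.7 CPM (1.75 ± 0.10) and Tob1 at 11, 8.53, 9.07 and 10.1 CPM and 26.8, 17.5, 23.1 and 25.1 CPM (1.24 ± 0.14).

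Genes that make RNA and protein fell in nearly every list, by small amounts. Of 85 cytosolic ribosomal proteins, 59 fell (69.4%) and none rose, median −0.31; the pair medians were −0.28, −0.12, −0.36 and −0.37, and without both libraries of pair 1 or pair 3 the count that fell was 37 or 31. Rpl10a was at 528, 546, 575 and 499 CPM and 373, 437, 376 and 333 CPM (−0.51 ± 0.08), Rps2 at 58.5, 57.7, 60.8 and 55.9 CPM and 37.9, 44.3, 43.7 and 36.6 CPM (−0.52 ± 0.07), and Rpl28 had −0.59 ± 0.10. Many pseudogenes copy these genes and could share their reads. Mitochondrial ribosomal proteins fell in 50 and rose in 2 of 77 (median −0.26), Mrps28 (−0.78 ± 0.09), Mrpl12 (−0.68 ± 0.06) and Mrpl44 (−0.68 ± 0.07) first, and Mrpl14 rose (0.28 ± 0.08), by 0.04 (adjusted p = 0.7) with library totals. Upstream of the ribosome, 15 of 18 subunits of RNA polymerases I and III fell and none rose, among them Polr1b (48.4, 53.7, 54.3 and 50.5 CPM to 25.4, 26, 27.1 and 27.4 CPM, −0.96 ± 0.05) and Polr3g (−0.74 ± 0.08). Nuclear pore proteins fell in 27 of 29 (93.1%): Nup210, a membrane nucleoporin, from 332, 471, 396 and 349 CPM to 139.5, 177, 182 and 156 CPM (−1.23 ± 0.12) and Nup85 from 120.5, 122, 118 and 117 CPM to 63.3, 63.5, 64 and 65.1 CPM (−0.90 ± 0.04, adjusted p = 2.4e-07), with Nup107 next (−0.82 ± 0.04). Of transport receptors 14 of 23 fell, with Xpo4 (−0.78 ± 0.07), Xpo5 (−0.68 ± 0.05) and Ipo11 (−0.65 ± 0.06) first, and Kpna4 rose (0.33 ± 0.07), a call that library totals removed (0.09, adjusted p = 0.196).

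The chaperonin that folds actin and tubulin, with prefoldin, had 12 of 14 that fell: Cct3, Cct6a and Tcp1 by 0.72, 0.71 and 0.62, and Cct2 (−0.53), Cct5 (−0.46), Cct8 (−0.41), Cct7 (−0.36) and Cct4 (−0.25) by less. Pfdn1 did not pass (−0.12), but did as a fall with library totals (−0.36, adjusted p = 0.00553). The 1 rise in the list was Pfdn5 (99.8, 101, 107 and 101 CPM to 141, 144, 137 and 126 CPM, 0.42 ± 0.05), a prefoldin subunit also known as a MYC-binding protein. Of 20 tRNA synthetases 14 fell and none rose, with Farsa (−0.89 ± 0.05), Yars (−0.83 ± 0.06) and Vars (−0.76 ± 0.08) first. Initiation factors fell in 33 and rose in 3 of 53 (7 rose with the pairs as a block and 6 without the untreated library of pair 4). Eif5a went from 1031, 920.5, 993 and 952 CPM to 615, 555, 664 and 604 CPM (−0.68 ± 0.07), Eif3j1 and Eif3j2, near copies that could share reads, had −0.86 ± 0.05 and −0.78 ± 0.06, while Eif4e3, a variant cap-binding protein, rose (0.53 ± 0.06). Spliceosome proteins fell in 33 of 44 with no rises, for example Srsf7 from 194, 196, 189 and 182 CPM to 109.6, 110.4, 106 and 107 CPM (−0.81 ± 0.04), beside Snrpf (−0.76 ± 0.06) and Snrpa1 (−0.76 ± 0.05). Proteasome subunits fell in 22 and rose in 3 of 39, and mitochondrial import genes and chaperones fell in 23 of 31, Timm9 (−0.95 ± 0.07), Timm8a1 (−0.92 ± 0.08) and Hspd1 (−0.91 ± 0.05) first. Psmd7, of the proteasome lid, had −0.51 ± 0.05 (adjusted p = 2.0e-05). Psmd8, a lid subunit, rose against its list from 183, 168, 172 and 175 CPM to 299, 275, 265 and 264 CPM (0.66 ± 0.05).

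Metabolic lists differed. Nucleotide synthesis fell in 26 and rose in 2 of 33 (median −0.77). Nme4 fell from 14.5, 12.5, 12.6 and 11.2 CPM to 4.39, 4.57, 4.65 and 4.84 CPM (−1.45 ± 0.09), Prps1, which makes the ribose donor, from 51.1, 50.9, 51.5 and 51.7 CPM to 19, 21, 21 and 21.8 CPM (−1.31 ± 0.05, adjusted p = 2.4e-07) and Umps, of pyrimidine synthesis, from 104, 103, 113 and 102 CPM to 43, 44.3, 41.6 and 43.4 CPM (−1.29 ± 0.05). Aprt, a salvage enzyme, rose (0.55 ± 0.10). The serine and one-carbon list fell in 13 and rose in 2 of 21: Shmt1 from 56.6, 56.3, 51.6 and 54.6 CPM to 19.4, 19.2, 21.9 and 20.3 CPM (−1.44 ± 0.06), Psat1 from 325, 262, 298 and 292 CPM to 122, 117, 123 and 116 CPM (−1.30 ± 0.06), Shmt2 (−1.18 ± 0.07) and the amino acid transporter Slc7a5 (−1.13 ± 0.07).

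Glycolysis was split, 9 up and 7 down of 31, close to or under the background in both directions. Pfkfb4, which tunes the pathway's rate, rose from 17.9, 19.7, 19.8 and 23.9 CPM to 56.3, 58.5, 58.1 and 63.9 CPM (1.55 ± 0.09), as did the glucose transporter Slc2a3 (7.71, 13.9, 17.3 and 18.5 CPM to 34, 27.2, 36.7 and 56.9 CPM, 1.45 ± 0.29), and the lactate transporter Slc16a1 fell (−0.98 ± 0.07). The list's pair medians were 0.13, 0.30, 0.19 and −0.23, so pair 4 differed in sign, and without its doxycycline library 15 rose. Without pair 1, 5 rose and 4 fell, without pair 3, 2 fell, and without the untreated library of pair 3, 4 fell. The median of 0.12 became −0.18 when quantile normalized (12 fell) and −0.12 on library totals (4 rose and 11 fell). The citric acid cycle had 5 up and 10 down of 27 (18.5% and 37%, against 31.3% and 33.8% of all genes). Under quantile normalization 18 fell, and with library totals 1 rose and 22 fell. Pcx (−1.09 ± 0.10), Idh3a (−0.91 ± 0.06) and Suclg2 (−0.57 ± 0.07) were lowest, and Idh1 rose (0.50 ± 0.07). Cholesterol synthesis had 4 up and 8 down of 24 (16.7% and 33.3%), the falls near the 33.8% of all genes. With library totals none rose and 15 fell, and 1 rose under quantile normalization and 1 without pair 1 or pair 2. The pair medians of cholesterol synthesis were −0.01, 0.04, −0.07 and −0.41, again with pair 4 apart, and 7 rose without the doxycycline library of that pair. Acat2 was at 98.2, 91.5, 95.8 and 92.8 CPM and 55, 65, 61.8 and 40.3 CPM (−0.79 ± 0.13) and Fdps at 371, 352, 369 and 379 CPM and 266, 277, 277 and 204 CPM (−0.54 ± 0.09), both lowest in that library, with Dhcr7 next (−0.68 ± 0.07).

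In the BCL2 family, which balances survival and death of the cell, 10 of 19 rose and 4 fell (52.6% and 21.1%, against 31.3% and 33.8% of all genes). With library totals 7 rose and 7 fell, with a median of 0.01 in place of 0.25. Bcl2, the survival protein of progenitors, fell from 86.7, 141, 116 and 107 CPM to 56.1, 60.0, 60.6 and 47.2 CPM (−0.99 ± 0.14, adjusted p = 1.7e-04). The survival proteins Bcl2l1 and Mcl1 rose, from 43.7, 39.2, 49.6 and 49.9 CPM to 146, 112, 143 and 127 CPM (1.53 ± 0.10) and from 235, 233, 229 and 244 CPM to 481, 495, 469.9 and 463 CPM (1.02 ± 0.04, 2.4e-07). Bcl2a1b and Bcl2a1d rose at low levels (2.28 and 2.42), and as near copies they could share reads. The death-promoting Bcl2l11 (BIM) rose from 39.3, 36.9, 48 and 49.7 CPM to 114, 93.8, 123 and 115 CPM (1.36 ± 0.11) and Bmf from 7.92, 13.7, 10.8 and 9.44 CPM to 22.9, 33.2, 26.3 and 24.9 CPM (1.37 ± 0.17), and Pmaip1 (NOXA) fell (−0.57).

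By size in CPM, which favours long transcripts, the 10 largest gains were Lyz2, Ctsb, Ctsd, Psap, Spp1, S100a9, Thbs1, Lpl, Gpnmb and Fth1. Spp1 (osteopontin) was at 353, 389.6, 501 and 666 CPM and 4290.2, 3763, 5639 and 3283 CPM (3.17 ± 0.22), and the matrix protein Thbs1 at 572, 309.6, 436 and 880.2 CPM and 5068, 2214, 3872 and 4182 CPM (2.85 ± 0.33). The 10 largest losses were Mll1, Mllt3, Myb, Calr, Ctsg, Slpi, Ptma, Hsp90ab1, Plac8 and Ncl. Slpi, a protease inhibitor, went from 2295, 1459, 1624 and 1929 CPM to 1277, 975, 1184 and 919 CPM (−0.74 ± 0.15), Plac8 from 712, 1034, 785 and 717 CPM to 226, 319, 314 and 229.6 CPM (−1.58 ± 0.15) and Ncl (nucleolin) from 1043, 992, 1061 and 974 CPM to 529.8, 508, 560.5 and 460.3 CPM (−0.99 ± 0.07). The groups of Ptma overlapped at 1914, 2319, 1809 and 1700.0 CPM and 1072, 1776, 1121 and 983 CPM (−0.68 ± 0.18, adjusted p = 0.00824), with pair 2 highest in both; without pair 1 the adjusted p of Ptma was 0.0503. Ranked by moderated t, the first genes had little spread between libraries. Anpep (CD13), a surface peptidase of myeloid cells, was at 6.29, 8.75, 7.25 and 8.74 CPM and 222, 188, 204 and 220.0 CPM (4.75 ± 0.11, 4.8e-08), and C77080, Tecpr1 and Vwa5a rose by 3.47, 2.65 and 1.86. Among falls, Dkc1, of telomerase and small nucleolar RNA particles, was at 114, 113, 105 and 101 CPM and 39.6, 38.9, 40.1 and 37 CPM (−1.47 ± 0.05, 2.3e-07), beside Dapp1, Ift57, Myb and Mcm10.

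Annotated gene types differed in their shares. Of 28 small nucleolar RNAs measured, 19 fell and none rose (median −0.86), and together they took 0.00594% of CPM in untreated and 0.00296% in doxycycline libraries, so each rests on few reads. Of 760 processed pseudogenes 296 fell (38.9%) and 82 rose (10.8%). Of 53 unprocessed pseudogenes 21 rose (39.6%) and 5 fell (9.43%), and of 33 transcribed unprocessed pseudogenes 16 rose (48.5%) and 5 fell (15.2%). Of 248 lincRNAs 70 rose (28.2%) and 50 fell (20.2%), and of 246 antisense genes 56 rose (22.8%) and 49 fell (19.9%). Of 23 miRNA genes 4 rose (17.4%) and 1 fell (4.35%). The shares of all genes were 31.3% and 33.8%. Shares also differed by level. In 4 equal classes by mean log2 CPM, genes of the lowest class rose in 24.1% and fell in 24%. Those of the highest class rose in 40.6% and fell in 36.5%. Whether gene types differ at the same level was not tested. Split into 4 equal classes by genomic span, genes of the longest class rose in 39.0% and fell in 29.3%, and those of the shortest in 23.7% and 34.6%. In the promoter windows, the AP-1 letters TGACTCA were in 6.91% of windows of genes that rose at least 2-fold, 3.73% of those that fell at least 2-fold and 3.37% of the others, and GAGGAAGT in 5.59%, 2.33% and 3.22%. The YY1-type ATGGCGG was less frequent in genes that rose and in genes that fell than in the others, at 2.35%, 2.64% and 9.04%. So was GCATGCGC (NRF1), at 1.76%, 2.95% and 5.73%. The cAMP element TGACGTCA was in 1.99%, 1.87% and 3.25%. Motifs were searched on both strands in 12274 windows of 9636 genes.

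The 4 pairs gave much the same response. Fitted on the mean of the other 3, the change over all genes had slopes of 1.06, 0.90, 0.98 and 0.91 for pairs 1 to 4. The genes that rose at least 2-fold had pair medians of 1.75, 1.60, 1.72 and 1.58. Those genes were chosen on the mean change of these same pairs, so their medians cannot show that the pairs agree. Pair 4 differed in where its libraries lay. On the line from the untreated (0) to the doxycycline mean (1), its untreated library lay at 0.156, against −0.061, 0.022 and −0.054, and its doxycycline library at 1.067, against 0.999, 0.919 and 0.928. Its untreated library thus lay nearer the doxycycline libraries than the other untreated ones did. It also had the highest late granule sum of the untreated libraries, a sum of which Lyz2 is a large part. Pair 4 is the only pair labelled TRIMA1, so that label and the pair cannot be told apart.

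**Figure D4:**
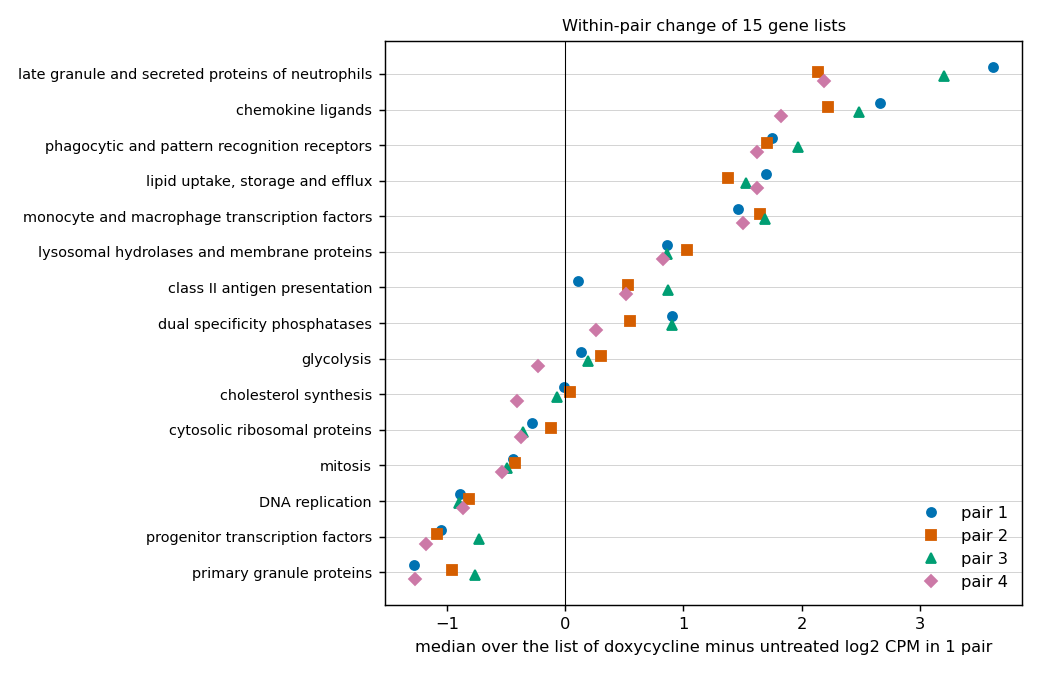
Median within-pair change (log2 CPM, doxycycline minus untreated) of 15 gene lists, 1 point per pair. Late granule genes spread from 2.14 to 3.62, DNA replication genes lie between −0.90 and −0.81, and pair 4 alone is below 0 for glycolysis.

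**Figure D5:**
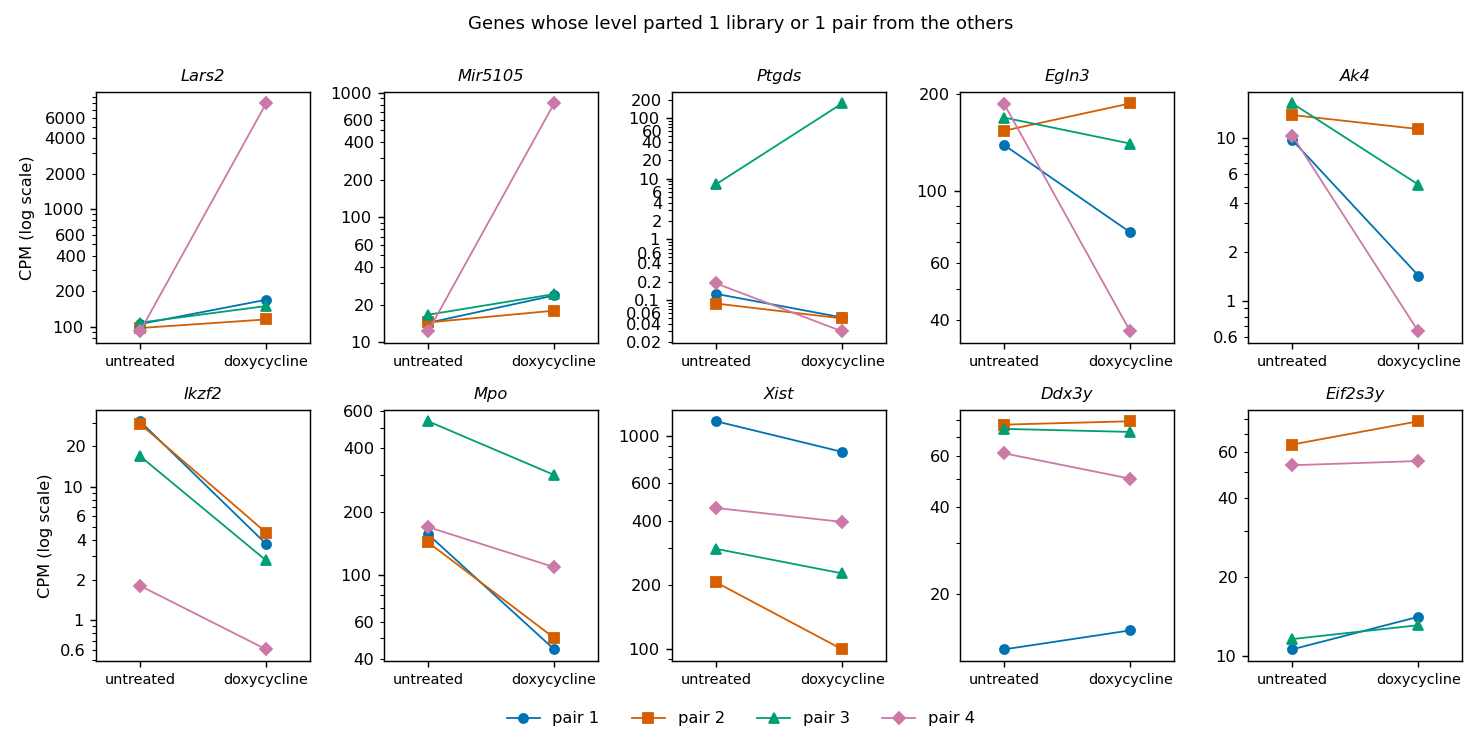
CPM (log axes; 0 drawn at 0.03) of genes that separate 1 library or pair, a line for each pair. Lars2 and Mir5105 are high in the doxycycline library of pair 4, Ptgds only in pair 3, and Xist and the Y-linked Ddx3y and Eif2s3y differ more by pair than by treatment.

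Some genes parted a library or a pair from the rest. Lars2, Mir5105, Mir5109 and Gm15564 were high in the doxycycline library of pair 4: Lars2 was at 169, 115, 149.5 and 7919.6 CPM in the treated libraries, Mir5105 at 23.7, 17.9, 24.3 and 819 CPM, Mir5109 at 1.63, 1.08, 1.55 and 130.2 CPM and Gm15564 at 3.16, 2.11, 2.86 and 198 CPM. Their untreated levels were 105, 97.2, 108 and 90.9, 14.3, 14.4, 16.6 and 12.2, 0.750, 0.433, 0.907 and 0.604 and 1.92, 1.39, 1.91 and 1.16 CPM in that order. None passed with all libraries (adjusted p from 0.1 to 0.168), and each rose by 0.51 to 1.08 without that library. With the pairs as a block Mir5109 passed (0.0448). Of 5 genes known to respond to low oxygen, named after their values were seen, Egln3, a prolyl hydroxylase, was at 139, 154, 169 and 186 CPM untreated and 74.8, 187, 140.5 and 37 CPM treated, and Ak4, a mitochondrial adenylate kinase, at 9.75, 13.9, 16.4 and 10.4 CPM and 1.43, 11.4, 5.19 and 0.648 CPM. Vegfa was at 215, 275, 172 and 91.3 CPM and Ankrd37 at 19.1, 37.2, 24.7 and 8.86 CPM in doxycycline, from 99.5, 104, 75.7 and 86 and 9.13, 13.4, 12.8 and 9.21 CPM, and Bnip3 at 47, 95, 62.6 and 30.0 CPM from 59.1, 78.6, 77.7 and 75.8 CPM. Among the doxycycline libraries, that of pair 2 was highest and that of pair 4 lowest for all 5, an order that the late choice of these genes may favour. The glycolysis genes Slc2a3 and Pfkfb4 did not share it: both were highest in the doxycycline library of pair 4 (56.9 and 63.9 CPM). An oxygen difference between the pairs was not tested. Of the 5, Ak4 fell (adjusted p = 0.0295, and 0.0551 to 0.08 without the untreated library of pair 2 or 3 or the doxycycline library of pair 1 or 4) and Vegfa rose (0.016, and 0.0575 with library totals). Ankrd37 passed with the pairs as a block (0.00628) and without the doxycycline library of pair 4 (1.25, 0.00168). Without the doxycycline library of pair 2 Egln3 and Bnip3 fell (−1.14 and −0.70).

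Ptgds, prostaglandin D synthase, was at 0.125, 0.0866, 8.06 and 0.186 CPM untreated and 0.0510, 0.0492, 174 and 0 CPM in doxycycline, so only pair 3 had it above 1 CPM. Xist, the RNA of the inactive X, was at 1175, 206, 296 and 460.3 CPM and 844, 99.9, 227 and 396 CPM, highest in pair 1, where the Y-linked Ddx3y (12.8, 77.4, 74.8 and 61.5 CPM and 14.9, 79.5, 73 and 50.2 CPM), Kdm5d (6.92, 42, 37.8 and 32.6 CPM and 6.89, 38.7, 34.5 and 28.4 CPM) and Uty (4.13, 22.8, 26.5 and 19 CPM and 4.29, 24.6, 23.7 and 16.4 CPM) were lowest. All 8 libraries thus held both Xist and Y-linked RNA. Eif2s3y, another Y-linked gene, was at 10.6, 63.8, 11.6 and 53.2 CPM and 14.1, 78.2, 13.1 and 55.2 CPM, so in pair 3 it was low while Ddx3y, Kdm5d and Uty were not. None of the 5 passed between groups; with the pairs as a block Xist passed as a fall (adjusted p = 0.00384) and Eif2s3y as a rise (0.0152).

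Markers of other cells that were on the table moved in both directions. The B cell markers held 276, 474, 352 and 289 CPM in all in untreated and 285, 349, 269 and 263 CPM in doxycycline libraries, nearly all of it Ighm (−0.24 ± 0.17, adjusted p = 0.239, and as a fall 0.0326 with the pairs as a block and 0.037 with library totals). T and NK cell markers summed to 2.75, 4.59, 3.98 and 2.23 CPM and 1.38, 2.80, 2.44 and 1.04 CPM. Megakaryocyte markers summed to 39.7, 48, 62.2 and 48.5 CPM and 84, 94.7, 82.7 and 88 CPM, with Itga2b down (19.5, 28.2, 43.8 and 28.6 CPM to 3.83, 5.85, 10.4 and 5.84 CPM, −2.24 ± 0.31) and Vwf up (15.5, 14.7, 12.1 and 13.9 CPM to 70.0, 75.8, 60.0 and 69.7 CPM, 2.29 ± 0.09). Mast cell, basophil and eosinophil markers summed to 202, 162, 219.6 and 276 CPM and 123, 125, 213 and 164 CPM, with Cpa3 down (−0.76 ± 0.19). Of the 2 stromal markers Pdgfrb fell (44.2, 66, 62.6 and 51.5 CPM to 14.9, 18.4, 20.9 and 12.6 CPM, −1.75 ± 0.17) and Acta2 rose at low levels (1.46). The part of such cells in the results was not tested. Among the myeloid markers themselves 9 of 13 rose, Itgam (2.83-fold), Ptprc and Cd33 among them, and Kit, Cd34 (−1.18) and Cebpa fell.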

How the data were processed

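RNA from 8 libraries (400 ng of total RNA each, TruSeq) was sequenced, and the authors deposited 1 table of log2 values. Software listed in the submitters' processing notes, without roles, is limma, HTSeq, TopHat2 and CASAVA 1.8.2, and the build is mm10. The deposited log2 values equal log2 of CPM from a scaled library size, with 0.5 added to each read count, and every value gave whole reads within 0.01 read. Of 13419 rows, 13 were identical repeats, which left 13406 genes, each above 1 CPM in 2 or more libraries. All columns were mapped to samples. Symbols that the table spoiled or that are out of date were read through GENCODE M21 names.

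Groups were compared with limma 3.58.1 in R 4.3.3 (lmFit and eBayes with a trend, two-sided, Benjamini-Hochberg over all genes, called at an adjusted p under 0.05). The procedure was also run on simulated counts with unpaired libraries and few changed genes, unlike these data, and nothing here rests on that run. The replicate label was not in the fit. Same-labelled libraries deviated together from their group means, with correlations of 0.514, 0.552, 0.483 and 0.454 with their own pair, so the labels pair the samples. Correlations with any other pair were at most −0.0132. Centring on the group means makes those negative on average once the own-pair values are positive, so they add no separate support. Alternatives were the replicate block, quantile normalization, library totals, a higher expression minimum of 3 on the log2 CPM scale, an offset of 2 reads, no variance trend, voom weights, and leaving out each library and each pair.

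Genes were named by rule: the switch genes, Hoxa9, Meis1, Myb, Myc and Id2; per list, at most 3 members with the largest change among those with separate groups and at least 10 CPM, and the largest in the other direction; any member of a list of at most 15; the 10 largest gains and losses of CPM; the 10 genes whose pairs differed most; and the first 5 by moderated t in each direction. Some genes that the rule names are not reported here. Other members were named after their values were seen. The lists and members were chosen with earlier results of these data known. Promoter windows and sequences are from RefSeq (GRCm38.p6).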

Additional observations from a re-analysis of the deposited data

Results flagged for a closer look

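Within each group of 4 libraries, a library was noted where its gap to the nearest other, over the group's range on the log2 scale, passed Dixon's 95% critical value. Of 744 groups (372 named genes), 44 passed, and chance passes about 1 in 20, so the share that passed was near that of chance. The doxycycline library of pair 4 held 13 of the 44. Some of the genes, among them Lars2, Mir5105, Mir5109, Ptgds and Retnlg, were named because their pairs differed most, which favours a flag. In the untreated library of pair 1, Acp5 was highest at 8.25 CPM (others 4.33 to 4.63), Bnip3 was lowest at 59.1 CPM (others 75.8 to 78.6), Cd86 was lowest at 1.33 CPM (others 1.67 to 1.73) and Ddx3y was lowest at 12.8 CPM (others 61.5 to 77.4). Also in the untreated library of pair 1, Kdm5d was lowest at 6.92 CPM (others 32.6 to 42.0), Prtn3 was lowest at 384 CPM (others 423 to 429), Slc15a3 was lowest at 10.1 CPM (others 14.5 to 14.7) and Txnrd1 was highest at 169 CPM (others 154 to 156). In the untreated library of pair 2, Dusp22 was highest at 3.55 CPM (others 2.42 to 2.57), Mrps28 was lowest at 18.8 CPM (others 23.0 to 23.9) and Snx29 was highest at 11.2 CPM (others 8.65 to 8.75). In the untreated library of pair 3, H2-DMb1 was lowest at 38.0 CPM (others 46.1 to 47.5), Mpo was highest at 538 CPM (others 143 to 169), Ptgds was highest at 8.06 CPM (others 0.0866 to 0.186) and Umps was highest at 113 CPM (others 102 to 104). In the untreated library of pair 4, Bhlhe41 was highest at 6.04 CPM (others 3.93 to 4.08), Cd300ld was highest at 35.5 CPM (others 27.9 to 28.8), Ctsa was highest at 501 CPM (others 421 to 427) and Fli1 was highest at 76.4 CPM (others 68.0 to 69.2). Also in the untreated library of pair 4, Grlf1 was lowest at 17.9 CPM (others 21.4 to 22.2) and Hoxa5 was lowest at 11.3 CPM (others 16.4 to 17.1). In the doxycycline library of pair 1, Sirt2 was highest at 132 CPM (others 121 to 122). In the doxycycline library of pair 2, Actn1 was lowest at 100.1 CPM (others 194 to 207), Calr was lowest at 1024 CPM (others 1143 to 1165), Mrpl14 was highest at 29.0 CPM (others 22.8 to 23.6) and Trib1 was lowest at 19.4 CPM (others 22.9 to 23.0). In the doxycycline library of pair 3, Elane was highest at 87.0 CPM (others 47.4 to 50.4), Hmga2 was highest at 50.1 CPM (others 23.2 to 26.2), Kit was highest at 7.81 CPM (others 2.91 to 3.39) and Ptgds was highest at 174 CPM (others 0 to 0.0510). Also in the doxycycline library of pair 3, Trem2 was lowest at 376 CPM (others 447 to 459.7). In the doxycycline library of pair 4, Acta2 was highest at 5.19 CPM (others 2.85 to 3.06), Arsb was lowest at 62.2 CPM (others 79.4 to 83.5), Cct5 was lowest at 252 CPM (others 275 to 278) and Fdps was lowest at 204 CPM (others 266 to 277). Also in the doxycycline library of pair 4, Fpr2 was highest at 46.6 CPM (others 21.2 to 23.8), Gm15564 was highest at 198 CPM (others 2.11 to 3.16), Lars2 was highest at 7919.6 CPM (others 115 to 169) and Mir5105 was highest at 819 CPM (others 17.9 to 24.3). Also in the doxycycline library of pair 4, Mir5109 was highest at 130.2 CPM (others 1.08 to 1.63), Msr1 was highest at 115 CPM (others 60.0 to 64.0), Psmd7 was lowest at 81.2 CPM (others 90.5 to 92.3) and Retnlg was highest at 56.5 CPM (others 22.8 to 25.6). Also in the doxycycline library of pair 4, Slc19a1 was lowest at 13.7 CPM (others 15.6 to 15.9).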

How the results depend on the processing

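The counts of 4198 genes that rose, 4535 that fell, 1360 that rose at least 2-fold and 695 that fell at least 2-fold depended on scaling and on the expression minimum. With library totals 2702 rose, 6912 fell, 1033 rose and 1210 fell at least 2-fold, which turned the order at 2-fold, and the median of all genes moved from −0.03 to −0.27 (−0.10 under quantile normalization). Of all calls 48.1% were rises, against 41.3% under quantile normalization and 28.1% with library totals. With a mean log2 CPM of at least 3, 807 rose and 275 fell at least 2-fold, where fewer genes were tested. Leaving out 1 library or 1 pair gave 3734 to 4106 genes that rose, 3829 to 4517 that fell, 1308 to 1403 that rose at least 2-fold and 653 to 737 that fell at least 2-fold.

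With the replicate block for the pairs, 4498 rose, 4828 fell, 1371 rose and 719 fell at least 2-fold, and the calls it changed among named genes stand beside them. The changes of Nras (−0.03, adjusted p = 0.796) and Flna (−0.10, 0.32) reversed under quantile normalization, and with library totals the changes of Ccnd3 (−0.03), Fli1 (−0.14), Hdac5 (−0.06), Lyl1 (−0.05), Manba (−0.21) and Txnrd1 (−0.20) were below 0 in place of above it; library totals move the median of all genes to −0.27, and the cause for Nras and Flna was not tested. Genes of few reads have the widest errors, and 400 ng libraries of 17922644 to 25959766 reads on the tabled genes set that limit.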
